A study of Bos taurus with 14 samples.

Results

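Conceptuses grown from poorly graded embryos were compared with the long conceptuses grown from well-graded ones. The comparison holds 8 of the 14 Day 15 bovine conceptuses of the study, chosen by their labels alone: the 3 whose embryo was Grade 3 and, of the 11 whose embryo was Grade 1, the 5 marked long. Every conceptus was Holstein and sired by 1 bull. Superovulated cows gave the embryos on Day 6.5, the embryos were graded by morphology, and 2 to 6 of the same grade were placed in each recipient heifer until the flush on Day 15. Grade 1 is the better grade. The lengths of the Grade 3 conceptuses are not among the labels, so a difference of grade and a difference of length cannot be told apart here. The 5 short Grade 1 conceptuses are therefore quoted beside the results. In 1 of them the sample description and the length label disagree, and the length label was followed.

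In cattle the blastocyst hatches and stays free in the uterus for many days before it attaches. Around the middle of that period the trophectoderm, the outer epithelium that later forms the placenta, lengthens the conceptus from a sphere through an ovoid to a filament. The hypoblast spreads beneath it as an inner lining, while the embryonic disc stays small. During this growth the trophoblast secretes interferon tau, which prevents regression of the corpus luteum, and prostaglandins, and it builds membrane from cholesterol and fatty acids that it takes up or makes.

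Expression was measured as log2 values of probe sets, groups of probes that report 1 transcript, on an Affymetrix bovine array. The 24016 probe sets tested covered 9155 named genes. Array medians of the 8 conceptuses lay between 5.644 and 5.69. Trophoblast genes were strongly expressed: KRT18, a keratin of simple epithelium, averaged 14.5 in Grade 3 and 14.47 in long conceptuses, and TKDP1, a trophoblast Kunitz protein, averaged 14.46 and 14.54. The hypoblast product APOA1 averaged 13.1 and 13.18, and the embryonic marker SOX2 4.36 and 4.39. The sexes were uneven, with 2 males and 1 female in Grade 3 against 1 male and 4 females among long conceptuses. XIST, the RNA that silences the second X chromosome, measured 4.074 to 4.326 in the 3 males and 7.681 to 8.585 in the 5 females, as labelled. On the first principal component of all 14 arrays (28.85% of the variance), the Grade 3 conceptuses scored 3.72, -10.88 and 6.55. The long ones scored 5.89 to 31.58 and the short ones -38.4 to -1.83, so the Grade 3 conceptuses lay between the outer scores of those groups. In whole conceptuses, fewer cells of a type and less RNA per cell cannot be told apart.

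No gene passed the test between Grade 3 and long conceptuses. limma called 0 of 24016 probe sets at an adjusted p under 0.05, and the smallest adjusted p was 0.112. The distribution was not flat: 2425 probe sets had an unadjusted p under 0.05, 10.1% of those tested, with 1202 higher and 1223 lower in Grade 3. Of the 9155 genes, 1015 (11.1%) did so, 544 higher (5.94%) and 471 lower (5.14%). The 3 Grade 3 values lay outside the range of all 5 long values in 803 genes (8.77%), above it in 491 (5.36%) and below it in 312 (3.41%). Large differences were mostly lower ones, since 25 genes with an unadjusted p under 0.05 were at least 2 fold lower in Grade 3 and 5 were at least 2 fold higher. In the same test against the short conceptuses, which uses the same Grade 3 samples, limma also called 0 of 24016 probe sets, with 2054 at an unadjusted p under 0.05 (8.55%). At the median probe set the 95% interval of the Grade 3 minus long difference reached 0.219 to each side on the log2 scale. None of the genes below is thus a call. They were named by the rules given with the processing, not only for standing far apart.

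**Figure D1:**
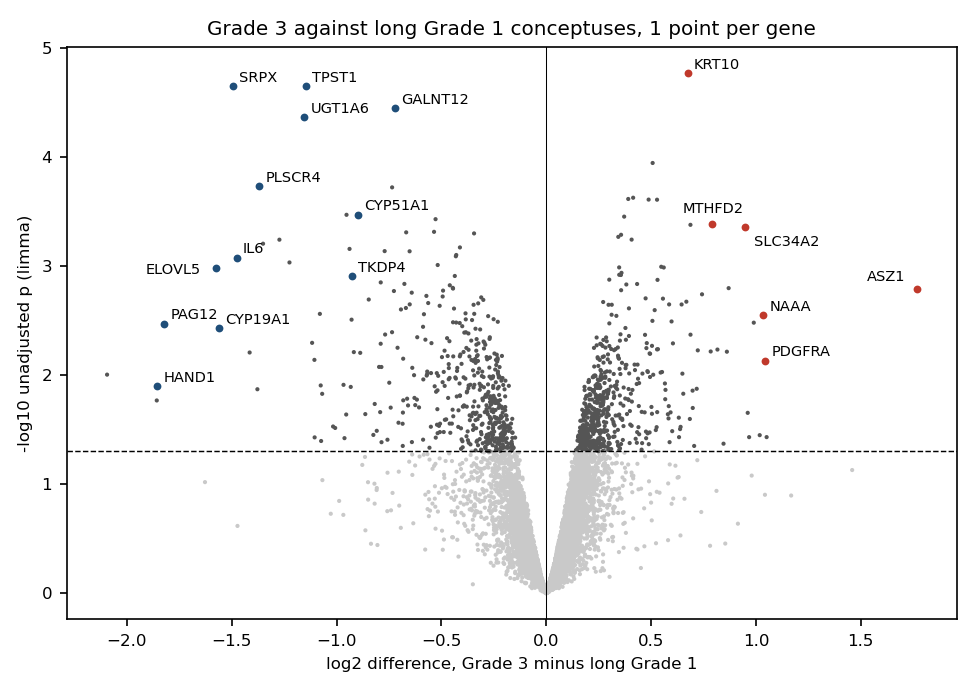
Each of the 9155 genes is a point, with its log2 difference (Grade 3 minus long Grade 1) on the horizontal axis and the negative log10 of limma's unadjusted p on the vertical axis. The dashed line marks an unadjusted p of 0.05, the 1015 dark or coloured points lie above it, and named genes are blue where lower and red where higher in Grade 3.

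Among the lower genes TPST1 and SRPX had the smallest p. TPST1, which sulfates tyrosines of secreted proteins in the Golgi, measured 7.80, 7.82 and 8.02 in the Grade 3 conceptuses and 9.01, 9.38, 8.67, 8.86 and 9.20 in the long ones. The groups did not overlap. Its difference was -1.15 ± 0.15 (SE; 2.21 fold), with adjusted p = 0.112 in limma. SRPX, a sushi-repeat protein, measured 5.54, 5.17 and 5.58 against 6.94, 7.26, 6.45, 6.69 and 7.28. Again every Grade 3 value lay below every long one, by a mean of -1.50 ± 0.19 (SE; adjusted p = 0.112). GALNT12, which attaches the first sugar of mucin-type O-glycans, measured 8.42, 8.41 and 8.29 against 9.19, 9.33, 8.99, 8.91 and 9.07. The Grade 3 values were close together and below the long range, with a difference of -0.72 ± 0.10 (SE; adjusted p = 0.123). Short conceptuses averaged 7.72 for TPST1, 4.95 for SRPX and 8.16 for GALNT12, near the Grade 3 means of 7.88, 5.43 and 8.38.

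UGT1A6, which conjugates phenols to glucuronic acid, measured 8.30, 8.37 and 8.69 in Grade 3 and 9.97, 9.72, 9.71, 9.34 and 9.29 in long conceptuses. The groups did not overlap, and the difference was -1.15 ± 0.16 (SE; adjusted p = 0.13); genes of the UGT1A family share exons, so the probe set may read more than 1 of them. PLSCR4, of the phospholipid scramblase family, averaged 9.65 ± 0.45 (SD, n = 3) against 11.02 ± 0.35 (SD, n = 5). ASL, the argininosuccinate lyase that yields arginine, averaged 8.85 ± 0.12 (SD, n = 3) against 9.59 ± 0.22 (SD, n = 5). For these too, all Grade 3 values lay below the long range, and both had adjusted p = 0.204. The same held for DYNLT3, a dynein light chain (-0.95), for FGFR2, a receptor of fibroblast growth factors (-0.67, with 1 of its 5 probe sets opposite in sign), and for TPM2, a tropomyosin (-1.27). CAV2, a protein of caveolae, differed by -1.35 and GALM, which interconverts the forms of galactose, by -0.94, again without overlap. When long replicate 3 was left out, TPST1, SRPX and DYNLT3 reached adjusted p = 0.0466, and over all settings tried their adjusted p ran from 0.0466 to 0.488, 0.511 and 0.508. By size rather than by p, TSPAN1, a tetraspanin chosen after its values were seen, stood lowest among genes with an unadjusted p under 0.05, at a mean of 5.04 against 7.13 (adjusted p = 0.369).

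Among the higher genes KRT10 had the smallest p. This keratin, known from the upper layers of skin, measured 7.94, 7.86 and 8.07 in Grade 3 and 7.32, 7.14, 7.22, 7.44 and 7.29 in long conceptuses. The lowest Grade 3 value exceeded the highest long value, and the difference was 0.67 ± 0.08 (SE; 95% interval 0.48 to 0.87; adjusted p = 0.112). Short conceptuses averaged 7.94, against 7.96 in Grade 3. A pair of enzymes of mitochondrial folate metabolism stood higher in Grade 3 as well. MTHFD2 measured 9.27, 9.56 and 9.60 against 8.38, 9.04, 8.86, 8.60 and 8.56, with a difference of 0.79 ± 0.15 (SE; adjusted p = 0.213). MTHFD1L measured 8.59, 8.79 and 8.37 against 7.81, 7.72, 8.14, 8.27 and 8.03, with a difference of 0.59 ± 0.14 (SE; adjusted p = 0.281). For each of the pair every Grade 3 value lay above every long value, and the short means were 9.64 and 8.83.

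The widest higher difference was that of ASZ1, a germ cell protein of the piRNA pathway, which represses transposons. It measured 9.91, 9.17 and 9.18 in Grade 3 and 7.36, 8.26, 8.33, 7.91 and 6.42 in long conceptuses. The groups did not overlap although the long values spread widely, and the difference was 1.77 ± 0.41 (SE; 3.4 fold; adjusted p = 0.277). SLC34A2, a sodium-dependent phosphate transporter, averaged 7.39 ± 0.47 (SD, n = 3) against 6.45 ± 0.15 (SD, n = 5). SLC5A5, the sodium/iodide symporter, averaged 6.59 against 5.85, and short conceptuses were higher still at 7.56. IL33, a nuclear cytokine of epithelia, averaged 7.53 against 6.66, and NAAA, a lysosomal enzyme that degrades fatty acid ethanolamides, 7.23 against 6.20. SNAI1, a repressor known from epithelial-mesenchymal transition, differed by 0.67 and IER2, an immediate early gene, by 0.65. Those 6 genes did not overlap between the groups either, whereas for PBX3, a homeobox factor (0.60), 1 long value of 6.10 exceeded the lowest Grade 3 value of 6.08.

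**Figure D2:**
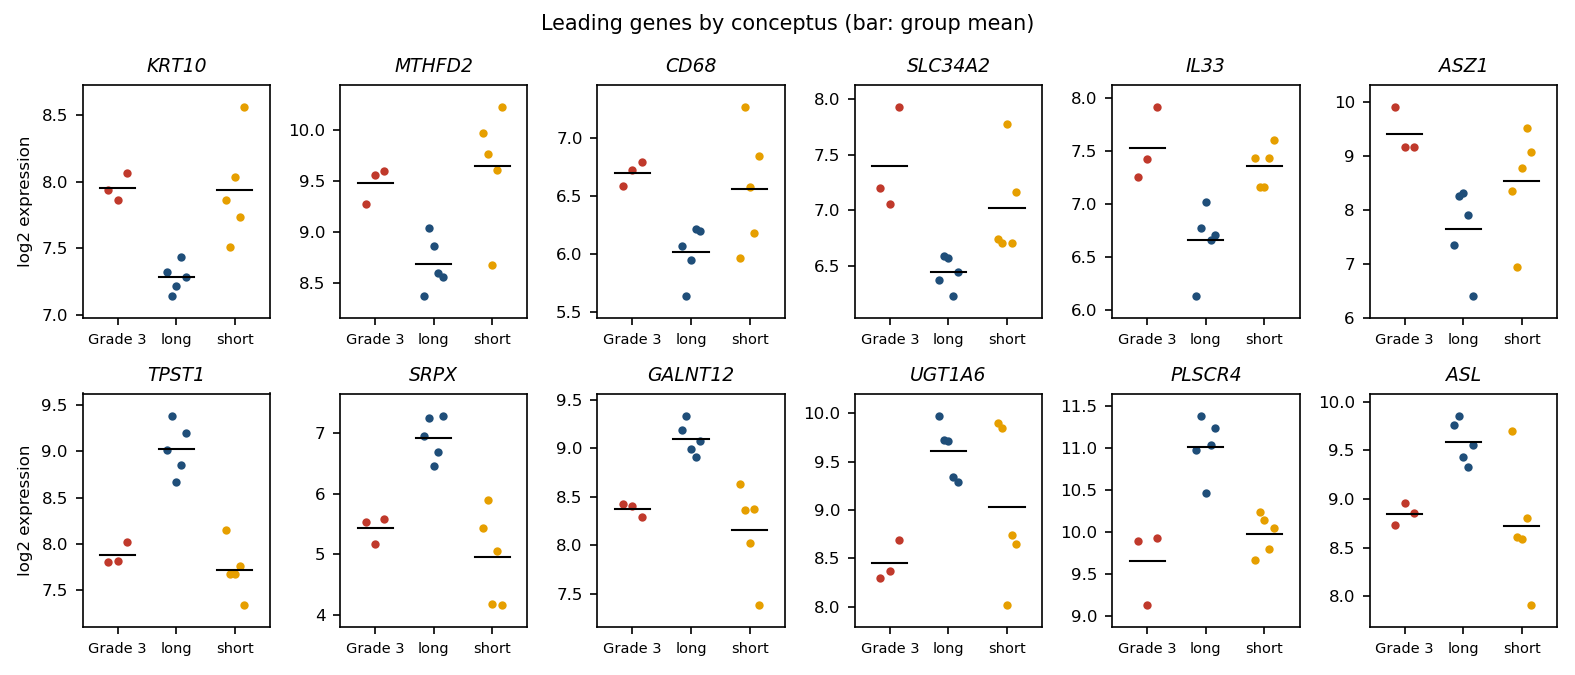
Log2 expression of 6 of the higher and 6 of the lower leading genes in each Grade 3 (red, n = 3), long (blue, n = 5) and short (yellow, n = 5) conceptus, with a bar at each group mean; each panel has its own vertical scale. In these 12 genes the red and blue points do not overlap, as for KRT10 (lowest Grade 3 value 7.86, highest long value 7.44).

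Cholesterol synthesis was the gene list with the largest share of low members among lists of at least 5 genes. Of 20 listed genes 15 were measured, 14 of them averaged lower in Grade 3, and 9 (60%, against 11.1% of all genes) had an unadjusted p under 0.05, all lower. None passed after adjustment. In 6 of the 15 every Grade 3 value lay below every long one, as it did in 3.41% of all genes. The median difference of the list was -0.37, against 0.02 over all genes. Earlier results of these conceptuses were known when the list was chosen. Averaged over the 15 genes, the Grade 3 conceptuses measured 9.17, 9.31 and 9.23 and the long ones 9.55, 9.62, 9.40, 9.56 and 9.75, without overlap. The short conceptuses lay between 9.165 and 9.265.

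The steps of the pathway were not equally far apart. HMGCS1, which makes the HMG-CoA that enters the pathway, measured 12.11, 12.18 and 12.12 in Grade 3 and 12.67, 12.63, 12.28, 12.47 and 12.79 in long conceptuses. The Grade 3 values were tightly grouped below the long range, at a difference of -0.43 ± 0.11 (SE; adjusted p = 0.311). The next enzymes, the kinases MVK (-0.14) and PMVK (-0.13) and the decarboxylase MVD (-0.06), overlapped, as did ACAT2 (-0.22), a thiolase that works before HMGCS1. FDPS, which makes farnesyl diphosphate, measured 10.77, 10.74 and 10.69 against 11.03, 11.19, 10.95, 10.98 and 11.24, again without overlap (-0.34 ± 0.09, SE; adjusted p = 0.293). FDFT1 and SQLE, which make squalene and its epoxide, differed by -0.41 and -0.47 with overlapping values, and 1 of the 3 probe sets of FDFT1 had the opposite sign.

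After the squalene steps, LSS, which closes the ring to lanosterol, measured 6.83, 6.89 and 6.85 against 7.25, 7.49, 7.12, 7.27 and 7.70, a difference of -0.51 ± 0.12 (SE; adjusted p = 0.281), although 1 of its 3 probe sets had the opposite sign. CYP51A1, the lanosterol 14-alpha-demethylase, measured 10.19, 10.33 and 10.39 against 11.32, 11.48, 10.77, 10.97 and 11.47. It had the widest gap of the list, with a difference of -0.90 ± 0.17 (SE; adjusted p = 0.204), and short conceptuses averaged 10.10. MSMO1, which removes methyl groups at carbon 4, measured 11.38, 11.49 and 11.48 against 12.08, 11.96, 11.67, 11.78 and 12.06, and EBP, the sterol isomerase, 9.49, 9.79 and 9.78 against 9.97, 10.17, 10.04, 10.21 and 10.22. Neither overlapped, at -0.46 ± 0.10 and -0.44 ± 0.10 (SE), with adjusted p = 0.277 and 0.271. NSDHL, which works with MSMO1, overlapped at -0.38, and DHCR7, the last enzyme, at -0.25. NSDHL and EBP are X-linked, and the sexes were uneven. For NSDHL both Grade 3 males measured 9.37, while the Grade 3 female measured 9.98, inside the long range of 9.77 to 10.16. TM7SF2, a sterol reductase of low signal, was the 1 member with a higher mean, by 0.05.

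The cholesterol genes kept a negative median in each sex, -0.35 in females (1 against 4) and -0.32 in males (2 against 1). Leaving out single conceptuses gave 7 to 10 members with an unadjusted p under 0.05, but counting the conceptus with conflicting length labels as long left 4, and females alone left 2.

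**Figure D3:**
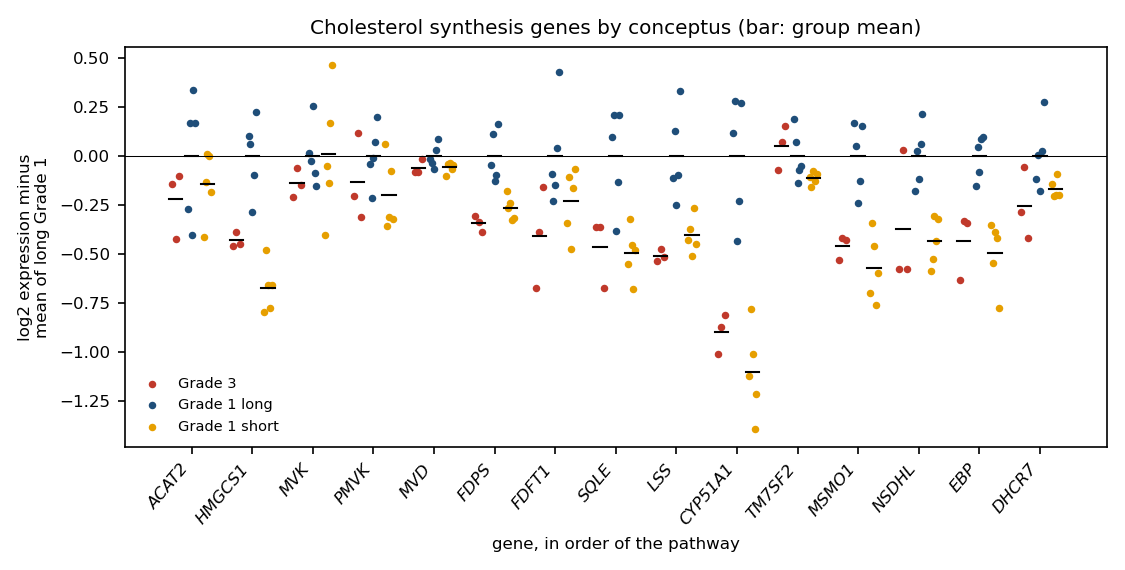
Log2 expression of the 15 measured cholesterol synthesis genes in pathway order, minus the mean of the 5 long conceptuses, for Grade 3 (red), long (blue) and short (yellow) conceptuses, with bars at group means. The red bar lies below 0 for 14 genes and lies lowest for CYP51A1, at -0.90.

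Of 14 measured genes for uptake, export and control, 3 had an unadjusted p under 0.05, all lower in Grade 3 (21.4%; median -0.045). SREBF2, the transcription factor that drives cholesterol synthesis, measured 7.89, 7.78 and 8.14 against 8.25, 8.33, 8.21, 8.37 and 8.30, which did not overlap (-0.35 ± 0.09, SE; adjusted p = 0.303; 1 of its 2 probe sets opposite in sign). INSIG1, which holds that factor in the endoplasmic reticulum and is itself one of its targets, overlapped at 8.59, 8.71 and 8.99 against 9.31, 9.31, 8.85, 9.44 and 9.76 (adjusted p = 0.369). SREBF1, the related factor for fatty acid genes, averaged 10.23 against 10.55 and differed by -0.16 rather than -0.33 without Grade 3 replicate 2.

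Genes of fatty acid metabolism had 4 of 35 members (11.4%, near the background) at an unadjusted p under 0.05, all lower, and a median of -0.0041. The count was 2 without long replicate 1 or with the conflicting conceptus counted as long. ELOVL5, which elongates polyunsaturated fatty acids, had one of the widest gaps of the comparison. It measured 11.45, 11.21 and 11.50 in Grade 3 and 13.58, 13.55, 13.12, 11.93 and 12.62 in long conceptuses. No values overlapped, and the difference was -1.57 ± 0.34 (SE; 2.98 fold; adjusted p = 0.258). Short conceptuses averaged 11.07. The nuclear receptor PPARG averaged 8.32 against 8.66, with overlap, and differed by -0.21 rather than -0.34 without Grade 3 replicate 2; the acyl-CoA synthetases ACSL5 and ACSL6 differed by -0.51 and -0.17 without overlap.

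In the prostaglandin list 5 of 17 genes had an unadjusted p under 0.05 (29.4%), 1 higher and 4 lower, with a median of -0.13. That count was 2 without Grade 3 replicate 1 or long replicate 2 and 3 without long replicate 1. PTGS2, the inducible cyclooxygenase, measured 13.49, 13.35 and 13.51 against 13.69, 13.65, 13.56, 13.56 and 13.59. The gap was small and free of overlap (-0.16 ± 0.07, SE; adjusted p = 0.486). AKR1B1, a prostaglandin F synthase, averaged 13.41 against 13.60, and PTGIS, the prostacyclin synthase, 7.90 against 8.63 with overlap. PTGER4, a receptor for prostaglandin E, stood the other way at 5.16, 5.44 and 5.95 against 5.09, 4.86, 4.67, 4.16 and 4.89 (0.78 ± 0.22, SE; adjusted p = 0.349). CYP19A1, the aromatase that makes oestrogen, was the 1 steroid gene of 14 with an unadjusted p under 0.05 (7.14%), where 4 had one without Grade 3 replicate 2, 3 without long replicate 4 and 2 without Grade 3 replicate 3 or long replicate 1. CYP19A1 measured 5.12, 5.84 and 6.37 against 7.80, 8.33, 6.87, 6.51 and 7.19, just without overlap, at a difference of -1.56 ± 0.41 (SE; adjusted p = 0.326), and all 4 of its probe sets had that sign.

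Interferon tau was read through IFNT2, which measured 14.56, 14.48 and 14.48 in Grade 3 and 14.61, 14.59, 14.55, 14.59 and 14.56 in long conceptuses, which overlapped (-0.07, 95% interval -0.21 to 0.06; adjusted p = 0.705). The long value of 14.61 was the highest on the 8 arrays, and whether a ceiling narrowed this difference was not tested. Trophoblast Kunitz proteins are secreted protease-inhibitor relatives found in ruminants. TKDP1 averaged 14.46 against 14.54, a difference of -0.08. TKDP4 measured 12.69, 12.01 and 11.96 against 13.49, 13.41, 13.10, 12.84 and 12.88, a difference of -0.93 ± 0.20 (SE; adjusted p = 0.271). TKDP2 measured 4.57, 4.38 and 4.68 against 5.02, 5.69, 5.87, 4.71 and 5.17 (-0.75 ± 0.24, SE; adjusted p = 0.374). TKDP1, TKDP4 and TKDP2, 3 of the 4 measured members of this list, lay below the long range without overlap, as did 3.41% of all genes. TKDP4 and TKDP2 were the 2 members with an unadjusted p under 0.05 (50%, median -0.41). Families of near-identical copies such as these can share probes.

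Pregnancy-associated glycoproteins, aspartic protease relatives made by trophoblast and, for many members, by its binucleate cells, gave 1 of 19 genes with an unadjusted p under 0.05 (5.26%) and a median of 0.011. That gene was PAG12, at 8.46, 9.05 and 7.55 in Grade 3 and 10.84, 11.01, 9.69, 9.02 and 10.33 in long conceptuses. The highest Grade 3 value just exceeded the lowest long one, and the difference was -1.82 ± 0.47 (SE; 3.54 fold; adjusted p = 0.312). The early, abundant PAG2 and PAG11 averaged 13.97 against 14.07 and 14.49 against 14.50.

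Transcription factors of the trophectoderm were split. Of 15 measured, 4 were higher and 3 lower at an unadjusted p under 0.05 (46.7%), and the median was 0.056. HAND1, a basic helix-loop-helix factor of trophoblast and mesoderm, measured 6.58, 5.39 and 5.32 in Grade 3 and 9.17, 8.45, 6.85, 6.32 and 7.32 in long conceptuses. The values overlapped through Grade 3 replicate 1 and long replicate 4, and the difference was -1.86 ± 0.61 (SE; adjusted p = 0.375). TFAP2A, an early trophectoderm factor, measured 10.54, 10.51 and 10.70 against 10.89, 10.87, 10.91, 10.81 and 10.83 (-0.28 ± 0.07, SE; adjusted p = 0.293). That small gap was free of overlap, while the homeobox factor DLX4 overlapped at -0.29, or -0.18 without Grade 3 replicate 2. In the other direction, ASCL2, a factor that keeps trophoblast precursors undifferentiated, measured 11.36, 11.35 and 11.36 against 10.73, 10.74, 11.31, 11.05 and 11.08 (0.38 ± 0.13, SE; adjusted p = 0.391). OVOL1, a zinc finger repressor of epithelia, averaged 8.997 against 8.75 without overlap. The count of 7 was 4 without Grade 3 replicate 2 or replicate 3.

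Among signalling genes, IL6, a cytokine of conceptus and endometrium, measured 6.68, 6.58 and 6.66 in Grade 3 and 8.10, 8.84, 7.54, 7.44 and 8.66 in long conceptuses. The Grade 3 values lay close together and below the long range, at a difference of -1.48 ± 0.31 (SE; 2.78 fold; adjusted p = 0.247), and short conceptuses averaged 5.68. Its list of cytokines had 2 of 20 genes at an unadjusted p under 0.05 (10%), or 5 without Grade 3 replicate 1; the other was the receptor chain IL10RB, which differed by -0.32. Insulin-like growth factor binding proteins, which hold the growth factors in fluid and matrix, included a pair of lower members: IGFBP4 averaged 4.20 against 4.69 and IGFBP7 6.70 against 7.81, neither with overlap. Of 39 growth factors and receptors 5 were higher and 3 lower (20.5%; median 0.0075), a count of 5 in all without Grade 3 replicate 3. EGF, the epidermal growth factor, averaged 4.33 against 4.02, without overlap.

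The BMP and activin list had 6 of 27 genes at an unadjusted p under 0.05 (22.2%), 2 higher and 4 lower, with a median of -0.049. That count lay between 2 and 9 as single conceptuses were left out; it was 3 without Grade 3 replicate 2 or without long replicate 1 or 2, and 2 without Grade 3 replicate 3. BMP2, a ligand of the pathway, measured 8.08, 7.70 and 8.23 in Grade 3 and 9.27, 9.60, 8.40, 8.53 and 8.81 in long conceptuses. It did not overlap, with a difference of -0.92 ± 0.26 (SE; adjusted p = 0.349). TGFB3 (-0.37) and INHBA (-0.40, or -0.24 without Grade 3 replicate 2), ligands of the TGF-beta and activin branches, also averaged lower, while the receptor ACVR2A (0.26) and the ligand BMP7 (0.27, or 0.17 without Grade 3 replicate 3, with 1 of its 2 probe sets opposite) averaged higher.

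For 8 genes a wide gap between long and short conceptuses was known from earlier results of these samples. In each of them the Grade 3 mean lay between the means of those groups. Since the genes were chosen for that gap, such a place is likely for any other group and is no test of grade. CKM, the muscle-type creatine kinase, averaged 9.56 in Grade 3, 10.52 in long and 7.05 in short conceptuses, with SDs of 0.71, 0.41 and 1.43. Its Grade 3 values of 9.51, 8.87 and 10.29 overlapped the long range, which began at 9.95. TP53I3, a p53 target that encodes a quinone oxidoreductase, measured 8.56, 6.98 and 8.99 in Grade 3, against means of 9.55 in long and 6.42 in short conceptuses. Much of the CKM and TP53I3 differences came from Grade 3 replicate 2, without which -0.97 became -0.625 and -1.38 became -0.78.

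PLA2G7, which hydrolyses platelet-activating factor, measured 11.16, 10.89 and 11.41 in Grade 3, with means of 12.16 in long and 9.34 in short conceptuses. TAGLN, an actin-binding protein of smooth muscle, measured 6.58, 6.79 and 7.98, with means of 8.19 and 5.88. For BMP2 and PAG12 the means in order of Grade 3, long and short were 8.003, 8.92 and 6.80, and 8.36, 10.18 and 7.03. AQP3, a channel for water and glycerol, and PDGFRA, a receptor of platelet-derived growth factor found in hypoblast, ran the other way. AQP3 measured 6.14, 6.28 and 5.50 in Grade 3 and averaged 5.37 in long and 7.03 in short conceptuses. PDGFRA measured 6.75, 7.17 and 6.08 and averaged 5.62 and 7.42, but 2 of its 3 probe sets had the opposite sign in Grade 3 minus long. The Grade 3 and long ranges overlapped in all of these except BMP2, and the adjusted p of the 8 against long conceptuses lay between 0.312 and 0.447.

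**Figure D4:**
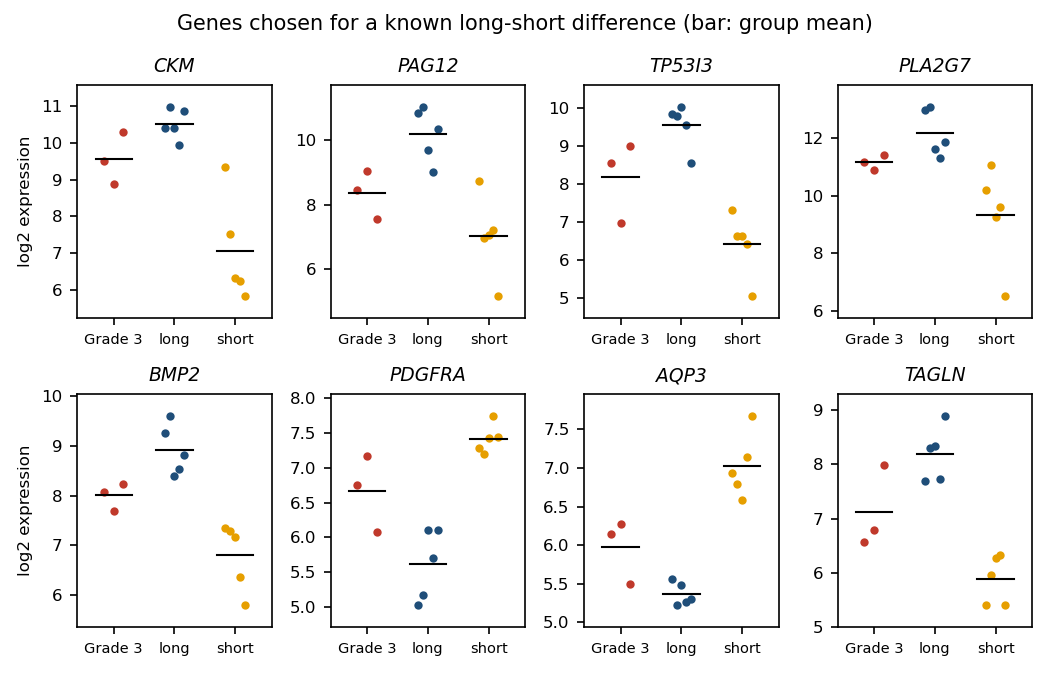
Log2 expression of 8 genes chosen for a known difference between long (blue, n = 5) and short (yellow, n = 5) conceptuses, beside the Grade 3 conceptuses (red, n = 3), with a bar at each group mean; each panel has its own vertical scale. The red bar lies between the other bars in each panel, as for CKM at 9.56 between 10.52 and 7.05. The choice of genes with a wide gap makes this likely.

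Other genes set the Grade 3 conceptuses apart from long and short ones in the same direction. The comparisons share the 3 Grade 3 samples, so their values are given side by side. PAFAH1B1, a regulator of dynein, measured 8.89, 8.57 and 8.57 in Grade 3 and 9.20, 9.12, 9.04, 9.10 and 9.06 in long conceptuses, without overlap. It differed by -0.43 from long and -0.32 from short conceptuses (adjusted p = 0.247 against long). TOMM5, of the import pore of mitochondria, measured 6.80, 6.71 and 6.61 against 7.08, 6.83, 7.18, 7.12 and 6.98, again below every long value. It differed by -0.33 and -0.61. The ubiquitin ligase HERC2 differed by -0.41 and -0.47, the regulatory PI3-kinase subunit PIK3R2 by -0.28 and -0.35, and TTC13 by -0.52 and -0.31; HERC2 and TTC13 overlapped the long range. ARMC8 differed by -0.25 and -0.35, but 2 of its 3 probe sets had the opposite sign.

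On the higher side, CALD1, the actin-binding caldesmon, measured 9.001, 8.89 and 9.04 in Grade 3 and 8.63, 8.68, 8.86, 8.59 and 8.69 in long conceptuses. It did not overlap, and it differed by 0.29 from long and 0.46 from short conceptuses (adjusted p = 0.342 against long). The endothelin receptor EDNRA differed by 0.56 and 0.44, PI16 by 0.24 and 0.25, and the microsomal epoxide hydrolase EPHX1 by 0.46 and 0.73. HOXA4, a homeobox factor, differed by 0.44 and 0.43, and SLC2A2, a glucose transporter of low affinity, by 0.48 and 0.62 with 1 of its 2 probe sets opposite in sign. EPHX1, HOXA4 and SLC2A2 overlapped with the long range. The Grade 1 conceptus without a length label lay inside the Grade 3 range for EPHX1 (4.857), HERC2 (8.515) and PAFAH1B1 (8.854). For the rest of the genes picked in this way it lay outside that range. EDNRA, EPHX1 and SLC2A2 had low signal, with Grade 3 means of 3.93, 4.88 and 4.45. Against short conceptuses their adjusted p in limma was 0.485, 0.485 and 0.456. LAMB1, a laminin chain of basement membrane, averaged 11.03 ± 0.04 (SD, n = 3) against 10.73 ± 0.13 (SD, n = 5), without overlap, and its difference was 0.30 from long and from short conceptuses alike.

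Among contractile and cytoskeletal genes 9 of 42 had an unadjusted p under 0.05 (21.4%), 2 higher and 7 lower, with a median of -0.053; the count was 5 without Grade 3 replicate 3 or long replicate 5. TPM2, at 4.24, 3.94 and 4.92 in Grade 3, lay below its long values of 5.58, 5.98, 5.27, 5.30 and 6.07 (adjusted p = 0.218). TPM4, another tropomyosin, averaged 12.63 against 13.10, and TLN1, which ties integrins to actin, 7.39 against 7.63, both without overlap. TAGLN differed by -1.08. In the adhesion list 3 of 37 had an unadjusted p under 0.05 (8.11%), 5 without long replicate 3 or with sex as a covariate and 7 in males alone. Within it ALCAM, a cell adhesion molecule, averaged 4.32 against 5.40, overlapping through long replicate 3 alone at 4.50. Without that conceptus ALCAM reached adjusted p = 0.0466 (0.0466 to 0.566 over all settings). The tight junction protein TJP1 averaged 4.42 against 3.93, at low signal and with overlap, since Grade 3 replicate 2 measured 4.10 and long replicate 1 4.16.

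Lysosomal genes had 7 of 20 members at an unadjusted p under 0.05 (35%), 6 lower and 1 higher, with a median of -0.056, and 6 or 7 as single conceptuses were left out. SCARB2, which carries a lysosomal enzyme to the organelle, measured 11.58, 11.47 and 11.63 in Grade 3 and 11.93, 11.87, 11.83, 11.73 and 11.78 in long conceptuses. The membrane protein LAMP2 measured 12.09, 12.43 and 12.34 against 12.45, 12.66, 12.52, 12.64 and 12.68. Neither overlapped, at -0.27 and -0.31 (adjusted p = 0.336 and 0.368). The glycosidases MANBA and GLB1 were lower by means of -0.41 and -0.28 without overlap, whereas the sialidase NEU1 averaged 8.65 against 8.27 and lay above the long range. In males alone 3 members had an unadjusted p under 0.05 and the median was 0.0077, and with the conflicting conceptus counted as long there were 4.

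Of 12 measured sugar and lactate transporters 3 were higher and 1 lower (33.3%; 2 in all without Grade 3 replicate 1). SLC2A1, the main basal glucose transporter, measured 11.19, 11.29 and 11.34 against 11.62, 11.72, 11.43, 11.42 and 11.38, just without overlap (-0.24 ± 0.09, SE; adjusted p = 0.439). SLC5A11, a sodium-coupled inositol transporter, averaged 4.24 against 3.99 without overlap, and SLC2A8, an intracellular glucose transporter, 8.11 against 7.55 with overlap; in males alone the latter turned to -0.04. Creatine genes had 2 of 10 members at an unadjusted p under 0.05 (20%, against 11.1% of all genes), CKM and GAMT, the enzyme that completes creatine. GAMT measured 7.64, 7.16 and 7.41 against 8.20, 8.48, 8.38, 7.92 and 7.91, without overlap (-0.77 ± 0.16, SE; adjusted p = 0.247). The creatine count was 1 without Grade 3 replicate 2 and 4 without Grade 3 replicate 3.

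None of the 41 oxidative phosphorylation genes had an unadjusted p under 0.05 in limma (1 without long replicate 1 or 5), and the median was 0.039. Of 33 genes of glycolysis and the citrate cycle 1 did (3.03%), or 3 without Grade 3 replicate 1 and 2 without long replicate 3 or 4. That 1 gene was IDH1, a cytosolic isocitrate dehydrogenase that makes NADPH, at 11.08, 10.83 and 11.17 against 12.58, 12.66, 11.29, 11.71 and 11.57. Its values did not overlap, at -0.93 ± 0.31 (SE; adjusted p = 0.376), although 1 of its 3 probe sets had the opposite sign. NQO1, a quinone reductase of the antioxidant list, averaged 7.04 against 8.11, and NFE2L2, the transcription factor that drives it, 11.43 against 11.69. The mitochondrial superoxide dismutase SOD2 averaged 11.50 against 11.27 and the peroxiredoxin PRDX6 11.56 against 11.28. In that list 5 of 40 were higher and 3 lower (20%), a count of 5 without Grade 3 replicate 2 and 4 without replicate 3.

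DNA replication genes had 6 of 43 higher and 1 lower (16.3%; median 0.037), but the count of 7 dropped to 1 or 2 without Grade 3 replicate 2 or 1, to 3 or 4 without long replicates 1, 3 or 5, and to 1 with the conflicting conceptus counted as long. The polymerase subunit POLD1 averaged 7.86 against 7.54, a difference of 0.31 or 0.21 without Grade 3 replicate 2, and CDKN1C, an imprinted inhibitor of the cell cycle, 10.07 against 10.58. Of 27 mitosis genes 3 were higher (11.1%, the background share). The count was 5 without Grade 3 replicate 1, 0 without Grade 3 replicate 3 and 1 without long replicate 3, 4 or 5. CCNB1, the mitotic cyclin, measured 11.26, 11.15 and 11.35 against 11.08, 11.03, 11.01, 11.04 and 11.09, without overlap. Among p53 targets and apoptosis genes 3 of 29 were higher and 4 lower (24.1%; 4 in all without Grade 3 replicate 2). The lower ones were led in size by TP53I3 (-1.38) and included the survival genes BIRC3 (-0.39) and BCL2L2 (-0.55), and the higher ones XIAP (0.37), another inhibitor of apoptosis, and GADD45B (0.57, or 0.27 without Grade 3 replicate 2), a stress gene.

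Keratins, annexins and S100 proteins gave 4 of 28 (14.3%) with a median of -0.083, and the count was 1 without Grade 3 replicate 2 and 2 without Grade 3 replicate 3 or long replicate 2. ANXA4, a membrane-binding annexin, measured 8.66, 8.86 and 9.08 in Grade 3 and 9.64, 9.95, 9.34, 9.31 and 9.48 in long conceptuses. All Grade 3 values were lower, by a mean of -0.68 ± 0.15 (SE; adjusted p = 0.277). Interferon-stimulated genes, which would answer interferon inside the conceptus, gave 4 of 36 (11.1%, the background share), 7 without Grade 3 replicate 1 and 2 without Grade 3 replicate 2 or long replicate 5. Of these 4 genes 3 were higher and 1 lower. The lower one, IFI30, had the smallest p of the list and averaged 11.04 against 11.31 without overlap (-0.27). Among the higher ones ISG15, a ubiquitin-like member, averaged 5.27 against 4.97 without overlap. Its difference was 0.30, or 0.18 without Grade 3 replicate 2. DNMT3B, a DNA methyltransferase of epiblast, was the 1 of 7 epiblast genes with an unadjusted p under 0.05 (14.3%, against 11.1% of all genes). It averaged 5.61 against 5.36, with 1 of its 2 probe sets opposite in sign. The epiblast count was 0 without Grade 3 replicate 2 or 3 and 2 without long replicate 2, 3 or 5.

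Markers of other cell types were also read. Immune cell markers had 2 of 10 members higher at an unadjusted p under 0.05 (20%, against 11.1% of all genes), neither overlapping: CD68, a lysosomal glycoprotein of macrophages, at 6.59, 6.73 and 6.79 against 6.07, 5.64, 5.95, 6.21 and 6.20, and CD8A at 6.64, 6.75 and 6.52 against 6.46, 5.47, 6.41, 5.56 and 5.69. The mean of the 10 markers was 4.84 to 4.92 in Grade 3 and 4.61 to 4.86 in long conceptuses, and the pan-leukocyte gene PTPRC averaged 3.07 and 3.00, near the bottom of the scale. Endothelial markers had 2 of 8 members lower at an unadjusted p under 0.05 (25%, against 11.1% of all genes). They were PECAM1 (5.27 against 5.96) and TEK (2.82 against 3.04, also near the bottom of the scale). Both lay below the long range without overlap, as did 3.41% of all genes. The list means were 3.94 to 4.02 in Grade 3 and 4.00 to 4.14 in long conceptuses. Of 8 markers of endometrial epithelium and 9 of red blood cells, 0 had an unadjusted p under 0.05 in limma. As single conceptuses were left out, up to 2 endometrial markers (without long replicate 3) and 1 red cell marker did. The part of such cells in the differences above was not tested. Of the X-linked genes tied to inactivation 1 of 9 had an unadjusted p under 0.05 (11.1%, the background share). That gene was KDM6A, at 7.86, 8.55 and 7.70 in Grade 3 against 8.60, 9.15, 8.56, 8.61 and 8.82. KDM6A escapes inactivation, its Grade 3 female had the highest value of that group, and 2 of its 3 probe sets had the opposite sign. Without Grade 3 replicate 2, the female of that group, 5 of 9 had an unadjusted p under 0.05, all 9 averaged lower and the median went from -0.18 to -0.37. Without long replicate 1, the male of its group, 4 did. SRPX, DYNLT3, LAMP2, EBP and NSDHL, described above as lower, are X-linked too, as is XIAP, which averaged higher (0.37).

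**Figure D5:**
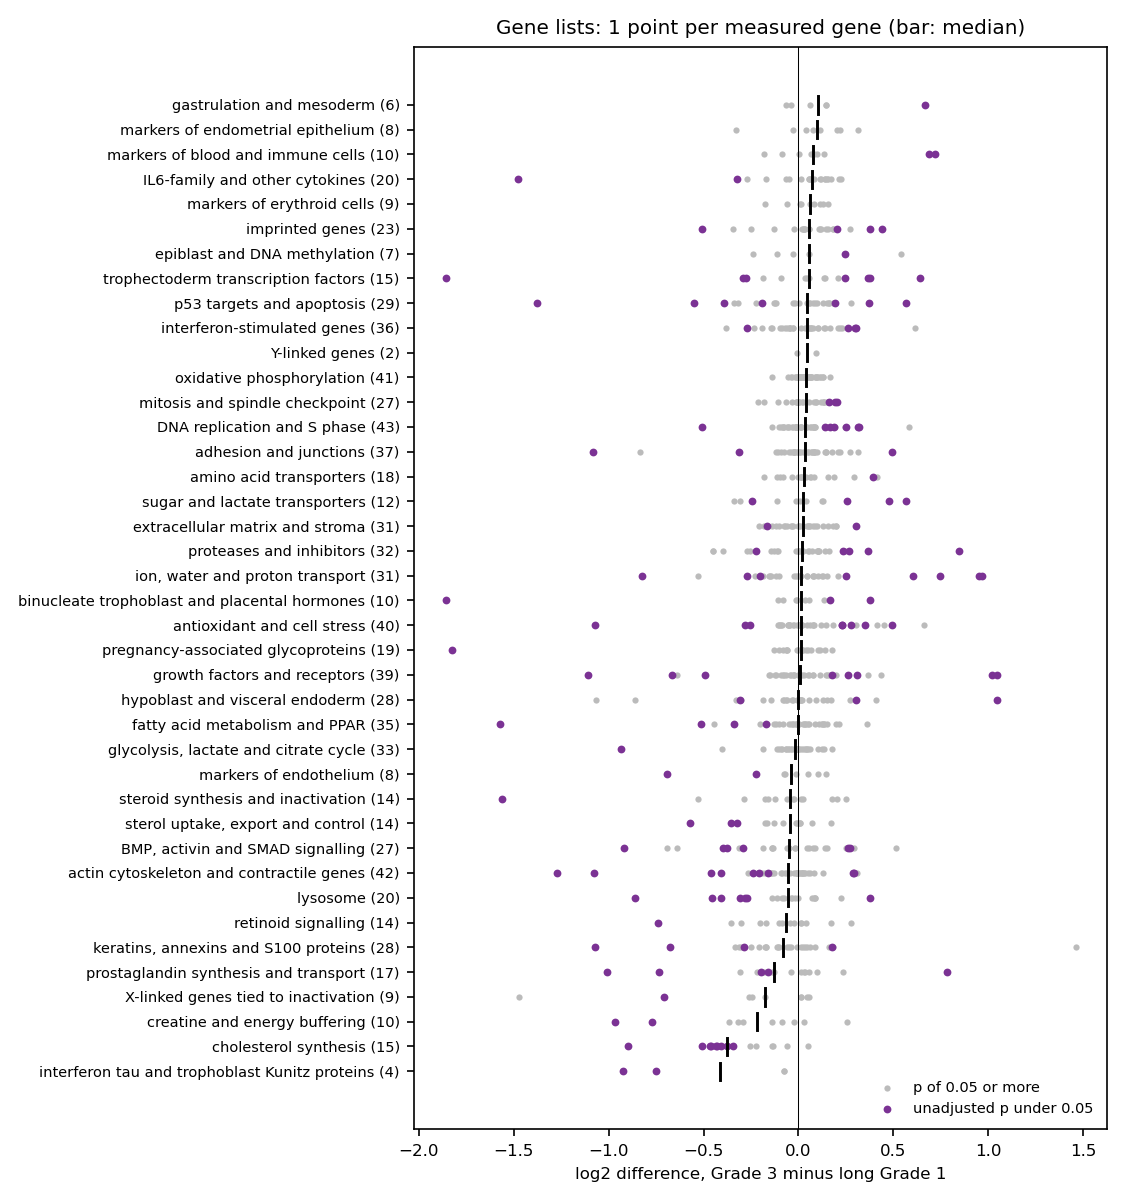
Each point is a measured gene of a gene list, placed by its log2 difference (Grade 3 minus long Grade 1); purple points have an unadjusted p under 0.05, bars mark list medians and the number of measured genes stands in brackets. The bar lies farthest left for interferon tau and Kunitz proteins (-0.41) and cholesterol synthesis (-0.37), while the median of all genes is 0.02.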

How the data were processed

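RNA of each whole conceptus (250 ng) was labelled with biotin and hybridised to 1 array, per the labels' protocols. The deposited values are log2 expression of probe sets; the submitters' processing notes name RMA and Affymetrix Expression Console, with no version. Whether the authors normalised all 14 arrays as 1 set is not stated. RMA equalises the arrays' distributions, so a shift of all genes would not be seen, and it compresses small differences at low signal. Precision is limited by the number of arrays, which carry no read depth.

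Of 24128 probe sets, 112 were controls and were left out. In the platform annotation 13292 of the remaining 24016 had 1 gene symbol, 86 several and 10638 none, and names were used for the first kind alone. RefSeq names of assembly ARS-UCD2.0 were found for 13263 of these, and 0 symbols changed. For genes with several probe sets, the one brightest on average across the 14 arrays stood for the gene.

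The 3 Grade 3 and 5 long conceptuses were fitted with limma 3.58.1 (lmFit, eBayes; two-sided) in R 4.3.3. The p-values of all 24016 probe sets were adjusted after Benjamini and Hochberg, with 0.05 as the limit for a call. The same fit was made against the 5 short conceptuses. Conceptuses from 1 recipient or dam cannot be recognised from the labels, so the p-values reflect the spread among these animals' conceptuses, taken as independent. The sample titles carry prefixes of unstated meaning, 2 in Grade 3 and 3 among long conceptuses, with 0 in common. Data were also simulated with independent normal noise for each probe set at its observed spread, and 200 of 24016 probe sets were altered. There 16%, 60%, 88% and 100% of differences of 1.25, 1.5, 2 and 3 fold were recovered, and 5.71% of the 140 calls were false. Relations between genes or between conceptuses were not simulated, so these shares may not hold for the measured data.

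The members, the gene lists and the tests were chosen with earlier results of these data known. Since no gene passed, the named genes are the 12 in each direction with the smallest p among those at least 1.5 fold apart, list members by role (all of cholesterol synthesis, otherwise mainly the 5 with the smallest p), the 6 in each direction with the smallest larger p in the fits against long and short, and 9 genes given in any case. Alternatives were sex, title prefix, normalisation, a minimum mean of 5, the conflicting label, the variance model, the choice of probe set, and each conceptus left out.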

Additional observations from a re-analysis of the deposited data

Results flagged for a closer look

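In 4 of the 151 genes examined, 1 long conceptus lay apart from the other 4, and it was long replicate 3 each time. It measured 6.893 for ARMC8, where the others lay between 7.08 and 7.142, and 6.098 for ACVR2A, where they lay between 6.399 and 6.498. For TLN1 it measured 7.489 against 7.64 to 7.676, and for S100A13, a calcium-binding protein, 4.714 against 4.465 to 4.534. Its value lay toward those of the Grade 3 conceptuses in ARMC8, TLN1 and S100A13 and away from them in ACVR2A. The test for such values flags about 1 group in 20 by chance. The 151 genes examined were those picked by the naming rules, not all of which are described above.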

How the results depend on the processing

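limma called 0 probe sets between Grade 3 and long conceptuses under every setting except these. Females alone (1 against 4) gave 2 calls, TRAK2 (3.51, adjusted p = 0.00364) and 1 unnamed probe set, both resting on 1 Grade 3 conceptus, and against short conceptuses females alone gave 1. Leaving out 1 conceptus gave 0 to 6 calls; the 6, all lower, came without long replicate 3 and belong to DYNLT3, SRPX, ALCAM and TPST1. An unadjusted p under 0.01 with 1.5 fold in place of the adjusted threshold gave 143 probe sets, 42 higher and 101 lower. The 2425 probe sets with an unadjusted p under 0.05 became 1615 in males alone (2 against 1), 2988 with sex as a covariate and 1766 to 2580 when 1 conceptus was left out. Leaving out 1 conceptus gave 0 calls (0 to 0) against short conceptuses; the settings for that comparison were chosen after seeing the data. Of 2698 values for the 151 genes examined, 2688 kept their direction and side of the threshold, 4 passed it and 6 reversed. ACAT2 (0.15) and SLC2A8 (-0.038) reversed in males alone, and PMVK (0.10) in females alone. TM7SF2 reversed with sex as a covariate (-0.0043), in males alone (-0.15) and without Grade 3 replicate 3 (-0.0012). The TM7SF2 difference ran from -0.0012 to 0.11 as each conceptus was left out. The cause was not tested. Since no gene passed in the main fit, keeping the side of the threshold meant staying uncalled. Direction counted as kept even where a difference nearly vanished, as for NSDHL in females alone (-0.014) and CCND1 in males alone (0.001). In the fit of all 14 conceptuses the members with an unadjusted p under 0.05 numbered 4 rather than 7 among trophectoderm factors, 5 rather than 9 among actin genes, 2 rather than 5 in the prostaglandin list and 4 rather than 7 for DNA replication. With title prefix as a random block the correlation was 0.0217 and 0 probe sets were called. No paired analysis was possible because the labels give no replicate numbers shared by the groups.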
